A study of Danio rerio with 16 samples.

Results

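The creatine kinase genes of the zebrafish heart were examined in RNA sequencing libraries from embryos at 48 h post-fertilization (hpf). Every gene symbol of the count table that names a muscle, brain or mitochondrial creatine kinase was taken, which gave 7 of 15419 genes. They are the cytosolic muscle forms *ckma* and *ckmb*, the cytosolic brain forms *ckba* and *ckbb*, and the mitochondrial forms *ckmt1*, *ckmt2a* and *ckmt2b*. Of these, 5 had enough reads to be tested among 11750 genes, and *ckma* and *ckmt2a* did not. The DKO group held 8 libraries from embryos homozygous for mutations in both *rbfox1l* and *rbfox2* (*rbfox1l*-/-; *rbfox2*-/-), which encode RNA-binding splicing regulators. The alleles, chb5 of *rbfox1l* and chb6 of *rbfox2*, are frameshift deletions. The CTRL group held 8 libraries from sibling controls. All embryos were of the Tubingen strain and, according to the study's methods, carried a green fluorescent reporter driven by the myocardial *myl7* promoter. Each library was made from a pool of dissected hearts, so that a library averages over embryos and over all cell types in the dissected tissue. Epidermal marker genes were also read in every library.

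Creatine kinases transfer a phosphate group between ATP and creatine. In mammals, mitochondrial forms make phosphocreatine next to the site of ATP production, and cytosolic forms bound near the myofibrils and ion pumps use it to regenerate ATP where it is spent. In mammals the muscle-type cytosolic form is the main one of mature striated muscle, the brain-type form is the more abundant one of the embryonic heart, and the mitochondrial forms comprise a ubiquitous enzyme (CKMT1) and a sarcomeric enzyme (CKMT2). The question put to the data was which of these members differed between DKO and CTRL hearts, and whether cytosolic and mitochondrial members did so to the same degree.

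The 8 DKO libraries held 9321265 to 18783628 reads on genes, and the 8 CTRL libraries 8809208 to 12991978. The targeted genes were both lower in the mutants. *rbfox1l* averaged 64.0 ± 21.3 CPM (read counts scaled to the library's depth) in DKO and 441 ± 129 CPM in CTRL hearts, and *rbfox2* averaged 30.4 ± 4.82 CPM in DKO and 89.2 ± 35.8 CPM in CTRL hearts (SD, n = 8 each), with no overlap between the groups for either gene. CPM here are normalized by the trimmed mean of M-values (TMM), and a gene was called when it had an adjusted p under 0.05 in edgeR's quasi-likelihood test, differed more than 1.5-fold and had over 5 FPKM (fragments per kilobase of gene, scaled to depth) in at least 1 library. By these thresholds 548 genes were lower and 390 higher in DKO, but after scaling on 23 cardiomyocyte markers 73 were lower and 2610 higher, because that scaling moved the median of all genes to a log2 fold change of 0.85 from 0.02. DKO replicates 1, 2, 4 and 5 stood apart from the other DKO libraries in a sum of 9 sarcomere genes of cardiomyocytes, at 19258 to 25616 CPM, against 42116 to 48569 CPM in DKO replicates 3, 6, 7 and 8 and 43039 to 91106 CPM in CTRL libraries.

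Across the tested creatine kinase genes, 4 of 5 were lower in DKO hearts at an adjusted p under 0.05 (edgeR's quasi-likelihood test with Benjamini-Hochberg adjustment), where 13.9% of all 11750 genes were. These were *ckmt2b*, *ckbb*, *ckmb* and *ckba*, the last of which was above 0 after scaling on cardiomyocyte markers. *ckmt2b* passed the filter on counts only through its CTRL libraries (43 to 102 reads each, against 0 to 12 in DKO libraries). A gene kept in this way can hardly be other than lower in DKO, so it adds no support to the counts given here. None of the 5 was higher by edgeR, either adjusted or at an unadjusted p under 0.05, nor by DESeq2, where 13.2% of all genes were higher by edgeR. The median log2 fold change of the 5, *ckmt2b* included, was −0.98, beside 0.02 over all genes tested. The other 4 stood at −1.38 (*ckbb*), −0.98 (*ckmb*), −0.55 (*ckba*) and −0.10 (*ckmt1*). The first 3 of these were lower at an adjusted p under 0.05 (edgeR). With the fold and FPKM thresholds added, 2 members were called, *ckbb* and *ckmb*, where 4.66% of all genes were called lower. Without DKO replicates 1, 2, 4 and 5, 1 member was called, *ckbb*, and 407 of all genes were lower and 160 higher. None of the members was called higher, where 3.32% of all genes were. *ckba* missed the fold threshold and *ckmt2b* missed the FPKM threshold. Without an FPKM threshold, 3 members were lower, *ckmt2b* among them, beside 8.54% of all genes. In 2 members, *ckbb* and *ckmt2b*, the highest DKO value was lower than the lowest CTRL value, as in 4.38% of all genes. Apart from *ckmt2b*, *ckbb* was the only such member. The opposite separation, seen in 1.29% of all genes, occurred in none. In pooled hearts, fewer cells that express a gene and less RNA per cell cannot be told apart.

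**Figure D1:**
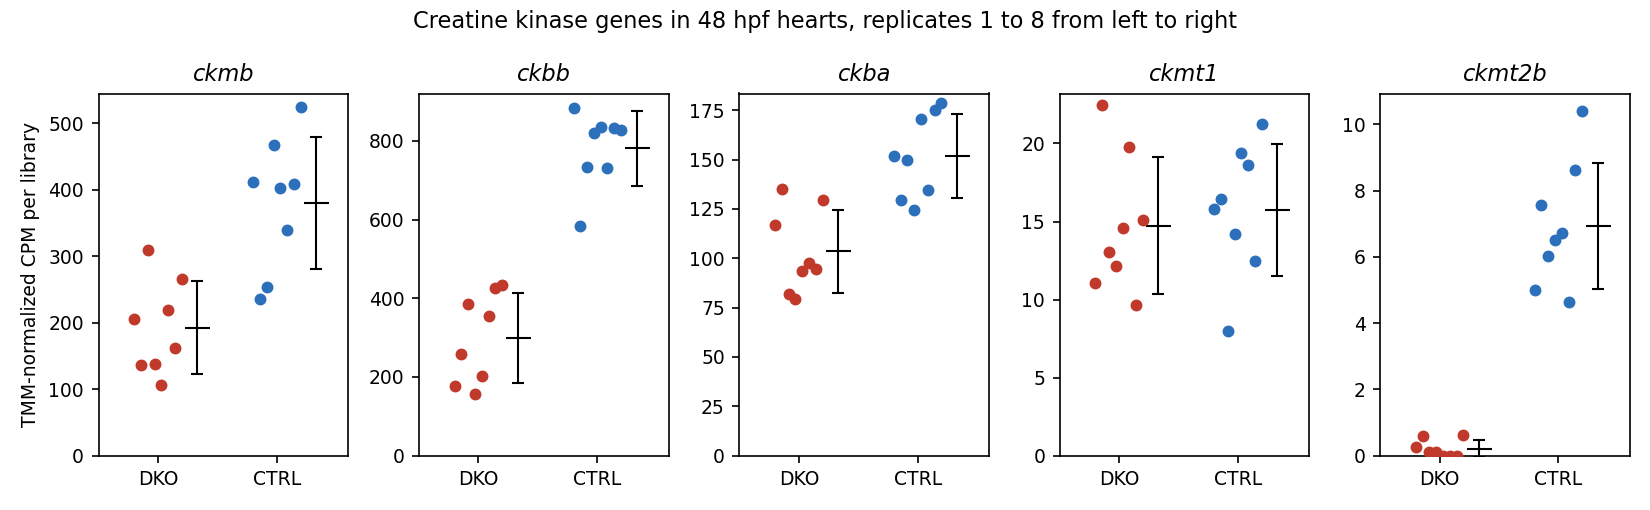
TMM-scaled CPM of the 5 tested creatine kinase genes in each library (red, 8 DKO; blue, 8 CTRL; replicates 1 to 8 from left to right, linear axes from 0), with the mean and SD of each group beside the points. The groups are apart in *ckbb* (DKO 155 to 433, CTRL 585 to 884 CPM) and *ckmt2b* (DKO 0 to 0.632, CTRL 4.64 to 10.4 CPM), and overlap in the other 3.

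*ckmb*, a zebrafish counterpart of the mammalian muscle creatine kinase, fell in DKO hearts. Its lowest, median and highest values were 107, 184 and 309 CPM in DKO libraries, against 235, 405 and 524 CPM in CTRL libraries. The groups overlapped: 6 of 8 DKO libraries lay below every CTRL library, and DKO replicates 3 and 8 reached the level of CTRL replicates 2 and 3. The mean was 193 ± 70.0 CPM in DKO and 380 ± 99.6 CPM in CTRL hearts (SD, n = 8 each), which set DKO at 50.7% of CTRL. The log2 fold change was −0.98 (SE 0.21, adjusted p = 0.00219, edgeR). It was negative in each of the 16 fits that left out 1 library (−1.11 to −0.88). Without the 4 DKO libraries low in cardiomyocyte markers, a choice made after the data were seen, it was −0.66 and no longer passed (edgeR adjusted p = 0.0634), and after scaling on cardiomyocyte markers it was −0.24 (edgeR adjusted p = 0.329).

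The other muscle form, *ckma*, was all but unread. It had 1 read in DKO hearts, in replicate 4, and 2 reads in CTRL hearts, both in replicate 1, and 0 reads in every other library. A count of 0 allows up to 3 reads, or 0.150 to 0.355 CPM depending on the library, by counting error alone. No fold change is given for it. How alike *ckma* and *ckmb* are in sequence was not examined, and reads that aligned to more than 1 place, 12.8% to 16.4% of each library, were left uncounted by the authors.

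*ckbb*, a brain-type form, was the creatine kinase gene with the most reads and fell without overlap. Its lowest, median and highest values were 155, 307 and 433 CPM in DKO libraries, against 585, 824 and 884 CPM in CTRL libraries. The highest DKO library lay below the lowest CTRL library, replicate 2. The mean was 299 ± 114 CPM in DKO and 781 ± 95.1 CPM in CTRL hearts (SD, n = 8 each), which set DKO at 38.3% of CTRL. The log2 fold change was −1.38 (SE 0.20, adjusted p = 4.18e-05, edgeR), the 163rd lowest of 11750 genes. *ckbb* kept its direction and its adjusted p under 0.05 in the 16 fits that left out 1 library (−1.48 to −1.28) and after scaling on cardiomyocyte markers (−0.71, edgeR adjusted p = 0.00139).

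Within the DKO group *ckbb* split as the cardiomyocyte genes did. DKO replicates 3, 6, 7 and 8 had 386, 356, 427 and 433 CPM of *ckbb*, and DKO replicates 1, 2, 4 and 5 had 176, 258, 155 and 204 CPM. The DKO libraries low in *ckbb* were thus the ones low in the sarcomere sum. Against CTRL, the 4 DKO libraries with the higher sums still gave a log2 fold change of −0.96 for *ckbb* (edgeR adjusted p = 2.2e-05). *ckmb* did not follow the same order, since DKO replicate 1 had 206 CPM and DKO replicate 7 had 162 CPM.

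*ckba*, the other brain-type form, fell less, and the direction of its change depended on the scaling: the log2 fold change was −0.55 with TMM (SE 0.12, adjusted p = 0.00177, edgeR) and 0.30 after scaling on cardiomyocyte markers (edgeR adjusted p = 0.234). Its lowest, median and highest values were 79.1, 96.1 and 135 CPM in DKO libraries, against 125, 151 and 179 CPM in CTRL libraries. The groups overlapped, with 6 of 8 DKO libraries below every CTRL library. DKO replicates 2 and 8 were the exceptions, at 135 and 129 CPM. The mean was 103 ± 21.1 CPM in DKO and 152 ± 21.3 CPM in CTRL hearts (SD, n = 8 each), or 68.2% of CTRL, which is a 1.47-fold difference and falls just short of the 1.5-fold threshold. Relative to the median of all genes under the marker scaling, *ckba* stood at −0.56.

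*ckmt2b*, a counterpart of the mammalian sarcomeric mitochondrial form, showed the largest difference of the 5 tested members. In DKO libraries 1 to 8 it had 4, 8, 1, 2, 0, 0, 0 and 12 reads, and in CTRL libraries 1 to 8 it had 43, 87, 61, 55, 58, 45, 101 and 102 reads. Every DKO library was thus far below the lowest CTRL library, and 3 DKO libraries had none. Over all libraries of a group that is 27 reads in DKO and 552 reads in CTRL, or 0.250 CPM (95% exact Poisson interval 0.165 to 0.364) in DKO and 7.03 CPM (6.45 to 7.64) in CTRL of the pooled reads. These intervals cover counting error only.

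In CPM, *ckmt2b* had a lowest, median and highest value of 0, 0.101 and 0.632 in DKO libraries, against 4.64, 6.61 and 10.4 in CTRL libraries. The pooled CPM was 28.1 times lower in DKO than in CTRL (95% counting interval 19.1 to 43.1). The fitted log2 fold change was −4.83 (SE 0.52, adjusted p = 8.18e-07, edgeR). It was −5.31 to −4.66 in the 16 fits without 1 library and −4.15 after scaling on cardiomyocyte markers (edgeR adjusted p = 3e-05). Since *ckmt2b* was tested only because of its CTRL reads, its direction and that it passed were largely set by the filter. The gene also had few reads in CTRL hearts, where its highest FPKM was 0.941, so it could not pass the FPKM threshold. The authors' FPKM divide its reads by 11074 bp, of the order of a gene span with introns. Such a length makes FPKM small, so missing the threshold says little about the gene's level.

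By fitted change *ckmt2b* was the 16th lowest of 11750 genes. Of the 15 genes below it, 11 were haemoglobin genes by symbol or members of a list of erythrocyte genes, such as the embryonic globin *hbbe1.1*. The rest were *cahz*, *zgc:163057*, *aqp8a.1* and *mir451a*, and whether red blood cells express these was not examined. The summed CPM of the 9 erythrocyte genes was 9.89 to 62.1 in DKO libraries and 3381 to 8880 in CTRL libraries, and 8 of 8 tested genes of that list were lower, with a median log2 fold change of −7.54. The part of red blood cells in the *ckmt2b* result was not tested. In CTRL replicates 1 to 8 the erythrocyte sums were 8880, 6610, 6374, 3711, 3381, 5730, 8290 and 6786 CPM. The same libraries had 4.99, 7.57, 6.03, 6.50, 6.73, 4.64, 8.62 and 10.4 CPM of *ckmt2b*. DKO libraries had at most 12 reads of *ckmt2b*, too few to set beside their sums.

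**Figure D2:**
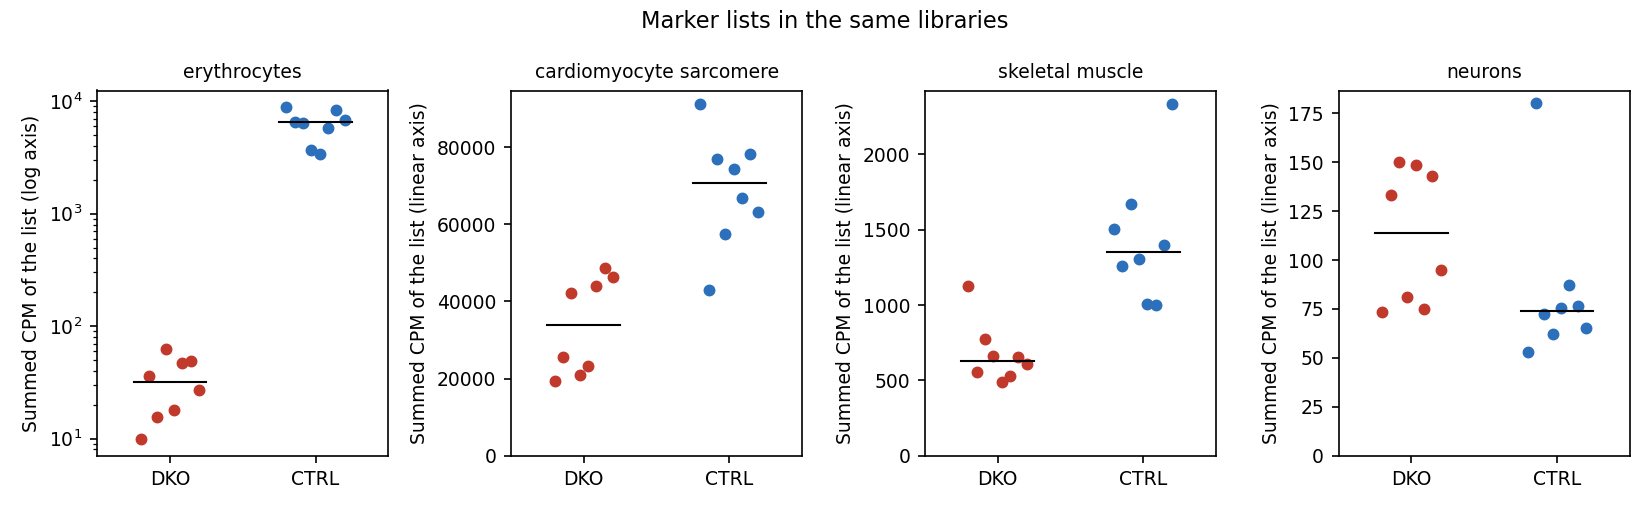
Summed TMM-scaled CPM of 4 lists of cell type markers per library (red, DKO; blue, CTRL; black line, median; log axis for erythrocytes and linear axes from 0 for the rest). Erythrocyte sums were 9.89 to 62.1 CPM in DKO and 3381 to 8880 CPM in CTRL libraries, and sarcomere sums were 19258 to 48569 CPM in DKO and 43039 to 91106 CPM in CTRL libraries.

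*ckmt1*, the counterpart of the ubiquitous mitochondrial form, did not pass the test. Its lowest, median and highest values were 9.63, 13.8 and 22.5 CPM in DKO libraries, against 8.003, 16.1 and 21.2 CPM in CTRL libraries. The ranges lay over each other almost entirely, and DKO replicate 2 had the highest value of all 16 libraries. The mean was 14.7 ± 4.39 CPM in DKO and 15.8 ± 4.23 CPM in CTRL hearts (SD, n = 8 each). The log2 fold change was −0.10 (SE 0.20, adjusted p = 0.770, edgeR) with a 95% interval of −0.49 to 0.29, so that changes of the size of *ckmb* or *ckbb* lie outside the interval under this scaling. The value was 0.03 with library size alone and 0.70 after scaling on cardiomyocyte markers (edgeR adjusted p = 0.0340), which is −0.15 relative to the median of all genes in that fit.

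*ckmt2a*, the third mitochondrial gene, had 3 reads in DKO hearts, all in replicate 4, and 3 reads in CTRL hearts, 2 in replicate 6 and 1 in replicate 8. It failed the count filter, and no fold change is given.

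The cell types that could carry these reads were checked by their markers. Cardiomyocyte genes were high in every library and lower in DKO, 8 of 9 tested sarcomere genes and 13 of 23 other cardiomyocyte genes passing the test with median log2 fold changes of −1.04 and −0.75, where 13.9% of all genes were lower. Of the skeletal muscle list, 13 of 18 genes in the table passed the filter, and its sum was 488 to 1127 CPM in DKO and 999 to 2332 CPM in CTRL libraries. It included *acta1a* (132 to 334 CPM in DKO, 510 to 1336 CPM in CTRL libraries) and *atp2a1* (61.2 to 219 CPM in DKO, 46.5 to 347 CPM in CTRL libraries), while *mylpfa*, *pvalb2* and *casq1a* had 0 reads in all libraries. Of the 13, *acta1a* and *mylz3* were lower and none higher, and the median log2 fold change was −0.18. Neuronal genes, of interest beside the brain-type forms, summed to 73.5 to 150 CPM in DKO and 53.2 to 180 CPM in CTRL libraries. That range overlapped between groups, and 2 of 12 tested neuronal genes were higher in DKO and none lower, a share near the 13.2% of all genes that were higher. Epidermal genes were higher, 7 of 8 tested (median log2 fold change 1.25). Their list summed to 19302 to 40983 CPM in DKO and 5699 to 23488 CPM in CTRL libraries. DKO replicates 1, 2, 4 and 5 had epidermal sums of 40028, 40983, 35524 and 30908 CPM. In DKO replicates 3, 6, 7 and 8 they were 27212, 26621, 19302 and 22873 CPM. The DKO libraries low in the sarcomere sum were thus the ones highest in the epidermal sum. Leukocyte genes were higher too, 3 of 4 tested (median 0.67), and their list summed to 420 to 1015 CPM in DKO and 315 to 586 CPM in CTRL libraries. Of 10 endothelial genes 7 were lower (median −0.61). The part of these cell types in the creatine kinase results was not tested, except that the scaling on cardiomyocyte markers gives each member relative to those genes.

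**Figure D3:**
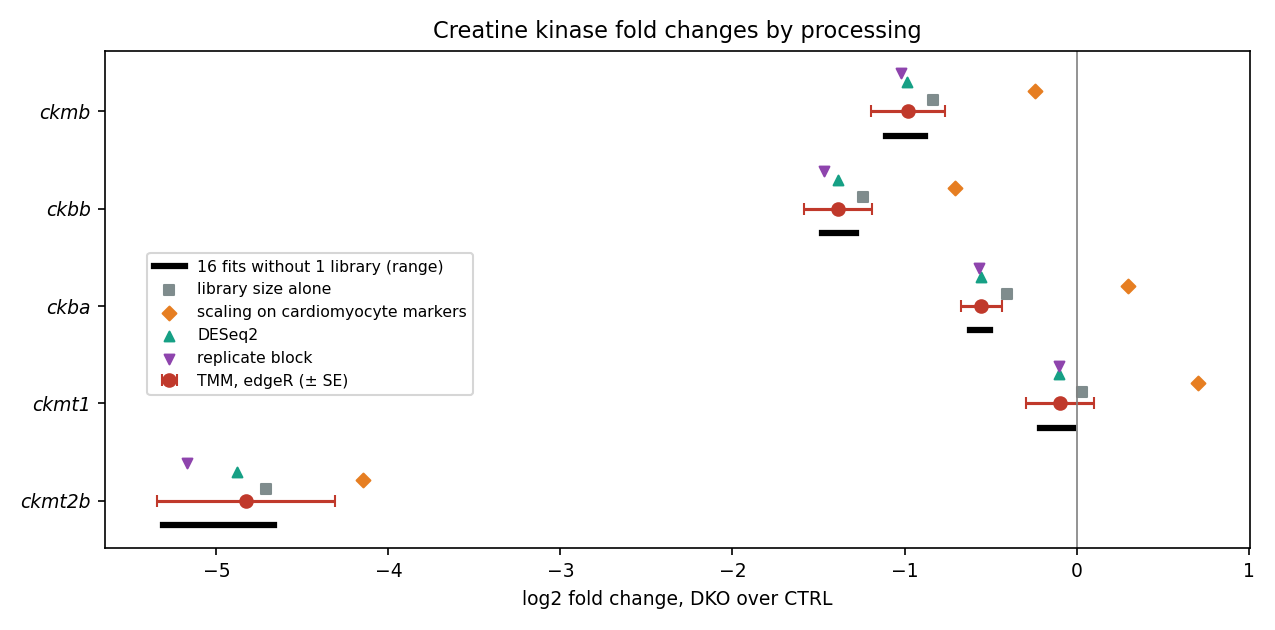
Log2 fold change, DKO over CTRL, of the 5 tested creatine kinase genes with TMM and edgeR (red, ± SE), with other scalings or fits, and the range over 16 fits that each left out 1 library (black). *ckbb* stayed below 0 throughout, as did *ckmt2b*, which passed the count filter only through its CTRL libraries. *ckmb* came to −0.24 with the scaling on cardiomyocyte markers. *ckba* (0.30) and *ckmt1* (0.70) turned positive there, *ckmt1* also with library size alone (0.03).

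Levels of different genes can be compared only per length. The authors' FPKM divide by 1 fixed length per gene, from 2088 bp for *ckmb* and 5011 bp for *ckbb* to 11074 bp for *ckmt2b*, 17404 bp for *ckba* and 20608 bp for *ckmt1*. These lengths are of the order of the genes' spans with introns, so the FPKM of long genes are small. The order below holds on this scale only and is not an order of transcript levels. By reads, *ckbb* came before *ckmb* (781 and 380 CPM on average in CTRL hearts). On this scale *ckmb* came first in both groups, at 96.6 ± 33.9 FPKM in DKO and 172 ± 45.2 FPKM in CTRL hearts (SD, n = 8 each). *ckbb* was next at 62.3 ± 22.8 FPKM in DKO and 147 ± 12.9 FPKM in CTRL hearts. Its libraries overlapped those of *ckmb* in both groups, so the order of these 2 genes is not beyond their spread. *ckba* followed at 6.23 ± 1.15 FPKM in DKO and 8.27 ± 1.04 FPKM in CTRL hearts, apart from both. The mitochondrial genes were lowest, with *ckmt1* at 0.745 ± 0.194 FPKM in DKO and 0.729 ± 0.210 FPKM in CTRL hearts, and *ckmt2b* at 0.0195 ± 0.0237 FPKM in DKO and 0.598 ± 0.181 FPKM in CTRL hearts. *ckmt1* and *ckmt2b* overlapped in CTRL libraries and were apart in DKO libraries.

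The reads of all 7 genes together came to 610 ± 170 CPM in DKO and 1336 ± 199 CPM in CTRL hearts (SD, n = 8 each), with ranges of 384 to 844 and 973 to 1561 CPM that did not meet. Of these reads, *ckbb* took 47.9% ± 8.02 in DKO and 58.8% ± 3.06 in CTRL hearts. *ckmb* took 31.5% ± 6.58 in DKO and 28.0% ± 3.84 in CTRL hearts, and *ckba* took 18.0% ± 5.22 in DKO and 11.5% ± 1.503 in CTRL hearts. The mitochondrial genes together took 2.61% ± 0.983 in DKO and 1.72% ± 0.411 in CTRL hearts. Among the mitochondrial reads, the share of *ckmt2b* in the sum of *ckmt1* and *ckmt2b* was 1.31% ± 1.49 in DKO (0 to 4.01%) and 31.2% ± 7.96 in CTRL hearts (19.9 to 43.0%). These are shares of reads, not of transcripts.

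A ratio of 2 genes within a library does not depend on how libraries are scaled, and it compares the members with each other directly. In pooled hearts it can still differ with the mix of cells in a library, and the part of that mix was not tested. The log2 ratio of counts (each plus 0.5) was compared between groups for all 10 pairs of the 5 tested genes by two-sided exact permutation tests over the 8 DKO and 8 CTRL libraries, for which 0.0001554 is the smallest p possible. After Benjamini-Hochberg adjustment over the 10 pairs, 9 passed at 0.05. The pairs with *ckmt2b* hold a gene that was tested only because of its CTRL reads. Their direction, and that they passed, were thus largely set by the filter. Their small p also lowered the adjusted p of other pairs, here and in the comparisons below. *ckmb*/*ckbb* and *ckba*/*ckmt1* passed (exact permutation, adjusted p = 0.0475 each) only with the *ckmt2b* pairs in the adjustment.

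*ckmt2b* fell against each of the other 4 genes, and in each of these pairs the 8 DKO values were all lower than the lowest of the 8 CTRL values. Its mean log2 ratio to *ckmt1*, the other mitochondrial gene, was −6.55 ± 1.51 in DKO and −1.17 ± 0.54 in CTRL hearts, a difference of −5.38. Its differences were −4.92 against *ckba*, −4.47 against *ckmb* and −4.01 against *ckbb*, and each of the 4 had an exact permutation p = 0.0001554 (adjusted 0.0003885). In DKO libraries with 0 reads of *ckmt2b*, these ratios rest on the added 0.5. With 5 added in place of 0.5 the differences were −3.54 against *ckmt1*, −3.08 against *ckba*, −2.63 against *ckmb* and −2.17 against *ckbb*, with the same exact permutation p.

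Of the 3 tested cytosolic genes, *ckbb* and *ckmb* were lower relative to *ckmt1* in DKO hearts, and *ckba* was so only narrowly. The log2 ratio *ckbb*/*ckmt1* was 4.29 ± 0.69 in DKO and 5.67 ± 0.47 in CTRL hearts, a difference of −1.38 (exact permutation p = 0.000777, adjusted 0.00130), and 7 of 8 DKO libraries lay below every CTRL library. The ratio *ckmb*/*ckmt1* was 3.67 ± 0.69 in DKO and 4.59 ± 0.44 in CTRL hearts, a difference of −0.92 (exact permutation p = 0.00668, adjusted 0.00955). Without the 4 DKO libraries low in cardiomyocyte markers this difference was −0.54 and did not pass (exact permutation, adjusted p = 0.1097). The ratio *ckba*/*ckmt1* differed by −0.47 (exact permutation p = 0.0427, adjusted 0.0475 with the *ckmt2b* pairs in the adjustment). It passed in only 5 of the 16 comparisons without 1 library, with the *ckmt2b* pairs in the adjustment there too. Those were without DKO replicates 1 and 7 and CTRL replicates 2, 6 and 8, and over all 16 the difference was −0.55 to −0.34 with adjusted p of 0.0208 to 0.0887 (exact permutation).

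Among the cytosolic genes, *ckbb* fell relative to *ckba*. Its log2 ratio was 1.45 ± 0.63 in DKO and 2.36 ± 0.19 in CTRL hearts, a difference of −0.91 (exact permutation p = 0.000777, adjusted 0.00130), and DKO libraries were more spread out than CTRL libraries. Without the 4 DKO libraries low in cardiomyocyte markers the difference was −0.36 (exact permutation p = 0.0162, adjusted 0.0323). It passed there only with the *ckmt2b* pairs in the adjustment. *ckmb* was higher relative to *ckbb* by 0.46 (exact permutation p = 0.0396, adjusted 0.0475 with the *ckmt2b* pairs in the adjustment). That result passed in 5 of the 16 comparisons without 1 library, with the *ckmt2b* pairs in the adjustment there too. Those were without DKO replicates 2, 5 and 7 and CTRL replicates 4 and 8. Over the 16 the differences were 0.34 to 0.57 with adjusted p of 0.00755 to 0.0863 (exact permutation). *ckmb* against *ckba* differed by −0.45 and did not pass (exact permutation p = 0.0889, adjusted 0.0889), except without DKO replicate 3, where it was −0.60 (adjusted p = 0.0120).

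**Figure D4:**
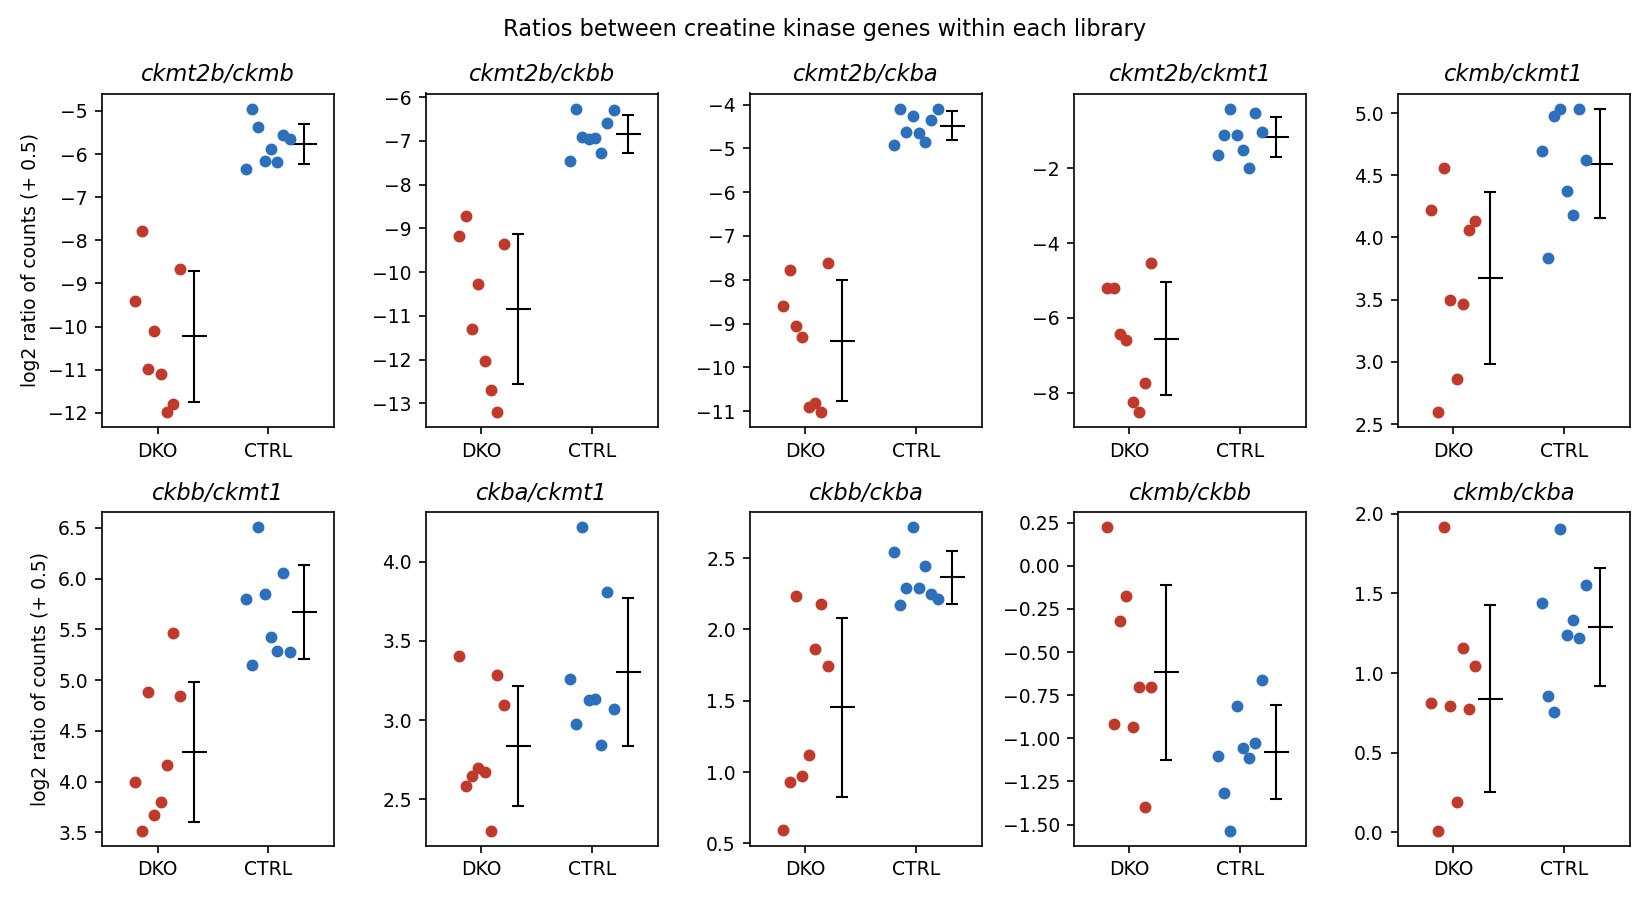
Log2 ratio of the counts (each plus 0.5) of 2 creatine kinase genes within each library, for all 10 pairs (red, 8 DKO; blue, 8 CTRL; mean and SD beside the points; each panel has its own linear axis, which does not start at 0). The groups are apart in the 4 ratios with *ckmt2b* on top and overlap in the other 6.

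The genes whose profile was most like that of a member were sought among all 11750 by the root mean square (RMS) difference of centred log2 CPM over the 16 libraries. These are descriptions, and the points share libraries and the difference between groups. *ckbb* was nearest to *pgam2*, the muscle phosphoglycerate mutase (RMS difference 0.161), followed by *ednrab*, *hey2*, the cardiac myosin light chain *cmlc1* and *pdlim5b*. *ckmb* was nearest to *b3glcta* (0.286), then *etnppl*, *irx2a*, *olfml2a* and *irx3a*. *ckba* was nearest to *sfrp5* (0.150), then *polr3d*, *emc10*, *si:ch211-197h24.9* and *nudt8*, and *ckmt1* to *rnaseh1* (0.277), then *gatd1*, *fnta*, *brat1* and *adi1*. *ckmt2b* had no close neighbour: its nearest were *hspb11* (0.689) and *tnni4a* (0.743), followed by *mir144*, *nt5c2l1* and *zgc:163057*. Of these neighbours, *cmlc1* is on the list of sarcomere genes of cardiomyocytes used above, and the paper counts *tnni4a* among sarcomere components. Which cell types the others mark was not examined. Among the members themselves, *ckbb* and *ckmb* were the closest pair (0.445), with *ckba* and *ckmt1* at 0.460. They were not close among all genes: *ckmb* ranked 363rd in nearness to *ckbb*, and *ckbb* ranked 313th in nearness to *ckmb*.

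The rest of the creatine pathway did not move as one. *slc6a8*, the creatine transporter of the cell membrane, fell: its lowest, median and highest values were 8.32, 11.9 and 24.9 CPM in DKO, against 17.9, 29.4 and 37.1 CPM in CTRL libraries, with 7 of 8 DKO libraries below every CTRL library. Its log2 fold change was −1.07 (SE 0.21, adjusted p = 0.000762, edgeR), close in size to that of *ckmb*, and −0.32 after scaling on cardiomyocyte markers (edgeR adjusted p = 0.141). The genes of creatine synthesis, *gatm* and *gamt*, which encode its successive enzymes, had log2 fold changes of 0.18 (SE 0.21) and 0.06 (SE 0.14) and did not pass with TMM (edgeR adjusted p = 0.606 and 0.805), and after scaling on cardiomyocyte markers they were at 1.0005 and 0.85 and passed (edgeR adjusted p = 0.0048 and 0.000982). Of 6 tested genes in this list 1 fell and 2 rose, *slc16a9a* (1.87) and *slc16a9b* (1.08), members of the monocarboxylate transporter family. The transporter gene *slc16a12b* stood at 0.17 and did not pass. The median of the list was 0.17, beside 0.02 over all genes, and 27.1% of all genes passed in either direction.

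Genes that exchange ATP, ADP and phosphate across the mitochondrial membranes were lower with TMM, 5 of 6 tested, where 13.9% of all genes were, with a median log2 fold change of −0.69, and at or slightly above 0 after scaling on cardiomyocyte markers (0.03 to 0.18, where the median of all genes was 0.85). They were the adenine nucleotide translocator *slc25a5* (−0.60), the phosphate carrier *slc25a3b* (−0.69) and the outer membrane channels *vdac1* (−0.69), *vdac2* (−0.74) and *vdac3* (−0.69). *slc25a5* averaged 5635 ± 931 CPM in DKO and 8564 ± 1174 CPM in CTRL hearts (SD, n = 8 each). The groups overlapped in all 5, and in *vdac1* and *vdac2* 7 of 8 DKO libraries lay below every CTRL library. Without the 4 DKO libraries low in cardiomyocyte markers *vdac3* was at −0.39 (edgeR adjusted p = 0.0535). The sixth gene, *slc25a3a*, had a log2 fold change of −0.22 and did not pass.

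Adenylate and nucleoside diphosphate kinases, the other enzymes that pass phosphate between nucleotides, changed singly. Of 7 tested adenylate kinases 1 was higher and 1 lower, and of 6 tested nucleoside diphosphate kinases 1 was lower (edgeR adjusted p under 0.05). These shares are near those of all genes, of which 13.2% were higher and 13.9% lower. Among 7 adenylate kinases, *ak4* of the mitochondrial matrix rose (0.83, SE 0.16, adjusted p = 0.000564, edgeR), with 37.0 ± 8.63 CPM in DKO and 20.9 ± 4.35 CPM in CTRL hearts (SD, n = 8 each). *ak1*, the cytosolic muscle form, had a log2 fold change of −0.35 with an adjusted p of 0.0498 (edgeR) and 0.44 after scaling on cardiomyocyte markers. Its call did not hold in 10 of 16 fits without 1 library (−0.43 to −0.28, adjusted p 0.0163 to 0.105). Those were the fits without DKO replicates 1, 4, 5, 6 and 7 and CTRL replicates 4, 5, 6, 7 and 8. The other 5, *ak3*, *ak5*, *ak5l*, *ak7a* and *ak7b*, lay between −0.78 and 0.79 and did not pass with edgeR and TMM. *ak5l* (0.79) did pass with DESeq2 (adjusted p = 0.0445), and also with library size alone, with limma at either pseudocount and with the scaling on cardiomyocyte markers (adjusted p 0.00521 to 0.0474). Among 6 nucleoside diphosphate kinases, *nme2b.2* fell without overlap, with 7.57 ± 2.47 CPM in DKO and 14.0 ± 3.66 CPM in CTRL hearts (log2 fold change −0.88, SE 0.21, adjusted p = 0.00375, edgeR). It did not pass after scaling on cardiomyocyte markers (−0.085, edgeR adjusted p = 0.75) or without the 4 DKO libraries low in those markers (−0.71, edgeR adjusted p = 0.0906). *nme2b.1*, *nme3*, *nme4*, *nme6* and *nme7* lay between −0.47 and 0.19 and did not pass.

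Of 8 tested genes for AMP sensing and deamination, 3 subunits of AMP-activated protein kinase fell with TMM, where 13.9% of all genes were lower, and none of the 3 was lower at an adjusted p under 0.05 (edgeR) after scaling on cardiomyocyte markers. *prkab2*, a β subunit, was at 9.56 ± 2.12 CPM in DKO and 17.5 ± 2.34 CPM in CTRL hearts with no overlap (SD, n = 8 each; log2 fold change −0.87, adjusted p = 0.000212, edgeR), and its log2 fold change was −0.093 after that scaling (edgeR adjusted p = 0.676). The other β subunit *prkab1b* was at −0.41 (edgeR adjusted p = 0.00531), at 0.44 after that scaling, and at −0.36 without the 4 DKO libraries low in cardiomyocyte markers (edgeR adjusted p = 0.068). The γ subunit *prkag2a* was at −0.76 (edgeR adjusted p = 0.0286), and its adjusted p ran to 0.0602 without DKO replicate 5 and was also above 0.05 without DKO replicates 1, 2 and 4 and CTRL replicates 1 and 7 (−0.87 to −0.66 over all 16 fits). It was at −0.068 after scaling on cardiomyocyte markers (edgeR adjusted p = 0.699) and at −0.26 without the 4 DKO libraries low in them (edgeR adjusted p = 0.356). *prkaa1*, *prkab1a*, *prkag1*, *prkag3b* and *ampd1* did not pass (−0.39 to 0.24). Of the genes for the M-band, the structure at the middle of the sarcomere to which muscle-type creatine kinase binds in mammals, *myom1a* fell without overlap, with 22.3 ± 4.96 CPM in DKO and 47.5 ± 12.3 CPM in CTRL hearts (log2 fold change −1.09, SE 0.16, adjusted p = 4.83e-05, edgeR), and stood at −0.30 after scaling on cardiomyocyte markers (edgeR adjusted p = 0.171). *myom2a* had −0.47 (edgeR adjusted p = 0.143).

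**Figure D5:**
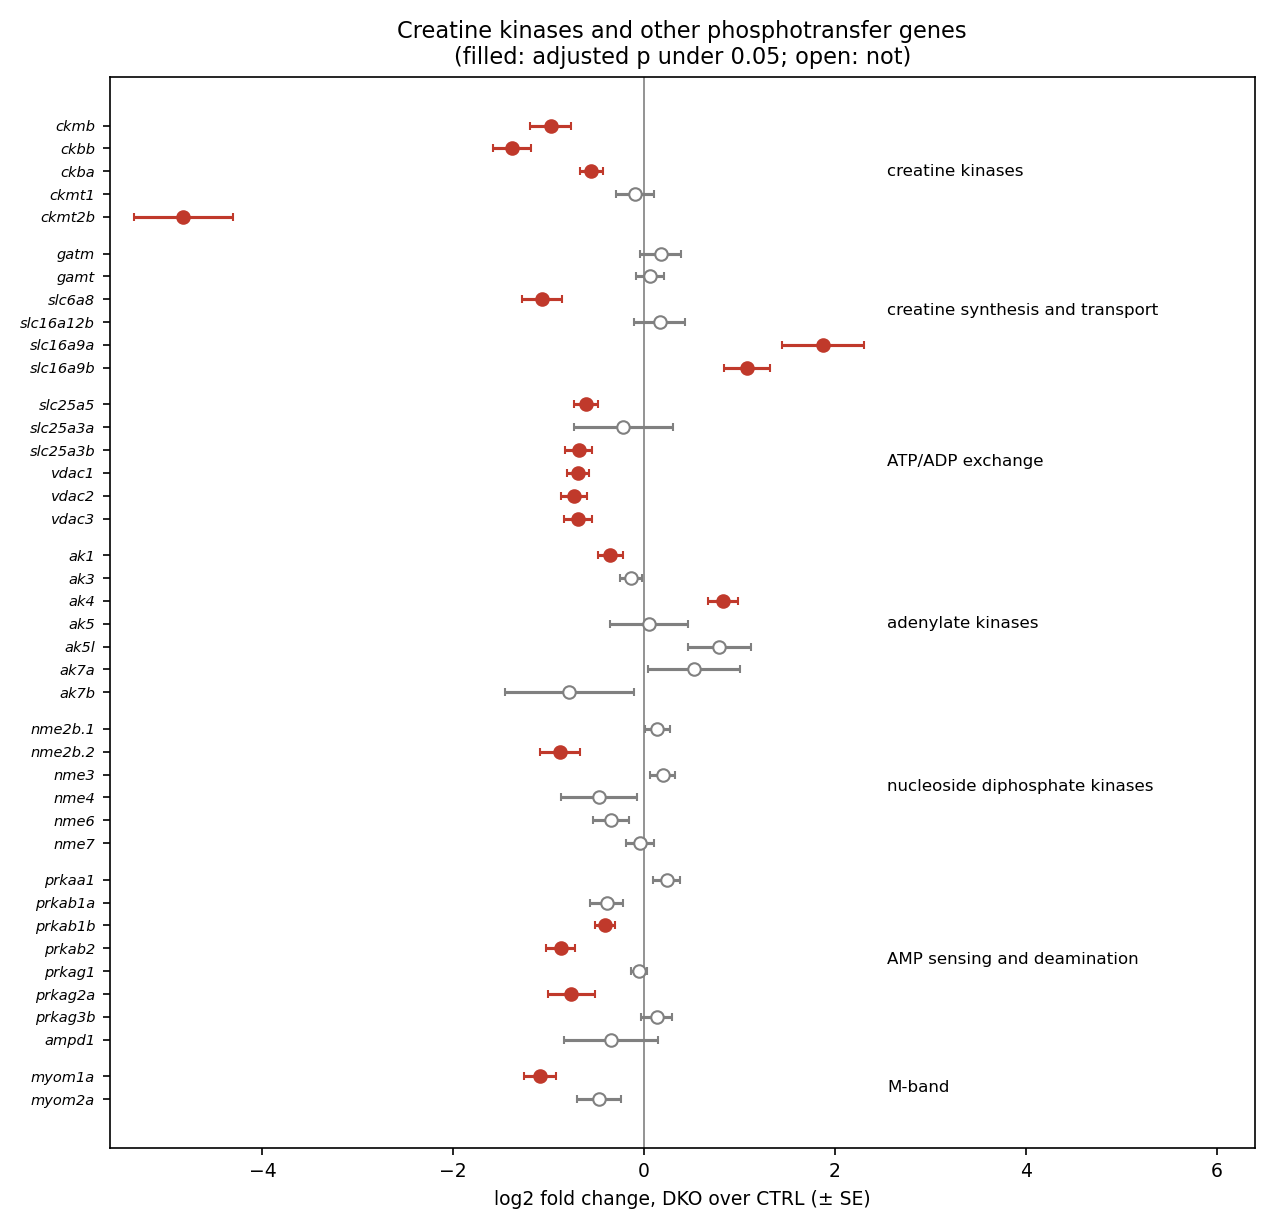
Log2 fold change, DKO over CTRL, with SE from edgeR (TMM) for the creatine kinase genes and the tested genes of 6 other lists. Filled red points passed an adjusted p of 0.05. *ckmt2b* (−4.83) lies furthest from 0. With the scaling on cardiomyocyte markers *ckba*, *ckmt1* and 16 of the other genes left of 0 here moved above 0.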

How the data were processed

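RNA of pooled hearts at 48 hpf was selected for poly(A), made into libraries with an ultra-low input method and sequenced as paired reads of 150 bp, in 8 DKO and 8 CTRL libraries named and numbered by their labels. The authors used STAR 2.6.1a to align reads to GRCz11, and HTSeq 0.11.2 gave the deposited counts, which are whole reads per gene, not normalized. Whether counting used strand is not given in the sources used here. Reads assigned to no gene (59.6% to 65.6% of each library), aligned to more than 1 place (12.8% to 16.4%) or ambiguous entered neither library sizes nor tests. The deposited FPKM values equalled the authors' counts divided by the library total and by 1 fixed length per gene, with none for *ckma*. Without molecular identifiers, counting intervals cover counting error only. Of the 15419 symbols, 14311 matched the RefSeq table of another assembly, GRCz12tu, which was used for names only.

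Counts were fitted with edgeR 4.0.16 in R 4.3.3 (filterByExpr, TMM, robust quasi-likelihood F-test, two-sided, no covariates), with Benjamini-Hochberg adjustment over the 11750 genes tested. The thresholds on adjusted p, fold and FPKM are those of the study's methods, where the authors used DESeq2 1.32.0. DESeq2 1.42.0, limma 3.58.1 on log2 of the deposited FPKM plus 1 or 0.1, other scalings and filters, a replicate block, and leaving out each library were alternatives. On simulated counts with 2-fold changes, edgeR recovered 151 of 193 changed genes with 6 false calls among 11552 genes. All libraries were kept as separate replicates, since the smallest chi-square of a pair, divided by its number of genes, was 21.6 in DKO and 10.8 in CTRL, far above sampling noise. Named genes are the members, the targeted genes, the tested genes of 6 related lists (apart from a gene not reported here) and the 5 nearest genes by profile. The members and lists were chosen with earlier results of these data known. Figures were drawn with matplotlib 3.10.9.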

Additional observations from a re-analysis of the deposited data

How the results depend on the processing

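*ckbb* and *ckmt2b* kept their direction and their adjusted p under 0.05 in all alternatives run (edgeR, DESeq2 or limma). For *ckmt2b*, which passed the count filter only through its CTRL libraries, the direction was largely set in advance. Scaling on cardiomyocyte markers changed the sign of *ckba* (0.30) and *ckmt1* (0.70) and left *ckmb* at −0.24 (edgeR adjusted p = 0.329), with 1 creatine kinase gene called lower (*ckbb*) and 73 genes called lower and 2610 higher in all. *ckmt1* also changed sign with library size alone (0.032) and with limma on FPKM plus 1 (0.015) or plus 0.1 (0.041), none of them past the threshold. The same marker scaling changed the sign of *ak1* (0.44), *ak3* (0.70), *nme4* (0.35), *nme6* (0.49), *nme7* (0.83), *slc25a5* (0.18), *slc25a3a* (0.58), *slc25a3b* (0.068), *vdac1* (0.10), *vdac2* (0.026), *vdac3* (0.061), *prkab1a* (0.37), *prkab1b* (0.44), *prkag1* (0.79), *ampd1* (0.44) and *myom2a* (0.31). Of these, *ak3*, *nme7* and *prkag1* passed as higher with it (edgeR adjusted p = 0.0150, 0.0108 and 0.00271), as did *ckmt1* (0.0340). The marker scaling also let *slc16a12b* (0.95), *ak7a* (1.33), *nme2b.1* (1.02), *nme3* (1.07), *prkaa1* (1.07) and *prkag3b* (0.90) pass as higher (edgeR), besides *gatm*, *gamt* and *ak5l* above. The median over all genes was 0.85 there. The cause was not tested. For the related and targeted genes, 905 values under alternatives kept direction and side of the threshold, 31 lost and 17 gained significance, and the rest changed sign.

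Values near 0 changed sign elsewhere: *ak3* (0.012 with library size alone, and 0.011 and 0.013 with limma on FPKM plus 1 and plus 0.1), *nme7* (0.11, 0.025 and 0.068) and *prkag1* (0.095, 0.083 and 0.095) in the same settings, and, without 1 library, *gamt* (−0.0064 to 0.15 over the 16), *ak5* (−0.069 to 0.28), *nme7* (−0.13 to 0.024) and *ampd1* (−0.57 to 0.017).

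A 2-fold threshold called 1 member (*ckbb*) and 213 genes lower and 229 higher, no FPKM threshold called 1004 lower and 1065 higher, and no fold threshold called 899 lower and 618 higher. Leaving out 4 DKO libraries low in cardiomyocyte markers, chosen after seeing the data, gave 1 member called (*ckbb*), beside 407 genes lower and 160 higher. *ckmb* was then at −0.66, and the ratios were 0.30 for *ckmb*/*ckbb*, −0.54 for *ckmb*/*ckmt1* and −0.47 for *ckba*/*ckmt1*. None of these values passed the threshold. *slc16a12b* (−0.036), *nme2b.1* (−0.12) and *nme3* (−0.00056) changed sign in the same setting. Without 1 library, *ckmb*/*ckbb* was 0.34 to 0.57, *ckba*/*ckmt1* −0.55 to −0.34 and *ckmb*/*ckba* −0.60 to −0.33.

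Replicate numbers did not pair the libraries (correlations of same-numbered deviations −0.27 to 0.11). With the number as a replicate block, *ckmb* was −1.02, *ckbb* −1.47, *ckba* −0.57, *ckmt1* −0.10 and *ckmt2b* −5.17. In that fit 2 members were called lower, beside 557 genes lower and 409 higher in all. The block changed 1 ratio, *ckmb*/*ckbb* (0.46, sign-flip exact permutation, adjusted p = 0.0694), and the *ak1* call (−0.36, edgeR adjusted p = 0.0864). Depth limits *ckmt2b* in DKO, *ckma* and *ckmt2a*, where 3 reads correspond to 0.150 to 0.355 CPM.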
